A study of Mus musculus with 23 samples.

Results

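The genes examined were 9 components and receptors of the complement system in mouse cardiac macrophages: C1qa, C1qb, C1qc, C3, C4b, Cfb, Cfp, C3ar1 and C5ar1. They were taken as the rows of the deposited count table that carry these gene names, 9 of 54532 rows, and all 9 were among the 16545 genes with enough counts to be tested. The study asked what Smad7, an inhibitor of the TGF-beta pathway, does in macrophages of the infarcted heart. MyS7KO mice carried floxed Smad7 on both chromosomes and Cre recombinase under the lysozyme M promoter, which is active across myeloid cells and not in macrophages alone. S7fl/fl littermates carried the same floxed alleles without Cre. All were C57BL/6, and their ages are not given in the labels. Poly(A) RNA came from cells sorted magnetically as Ly6G-negative and then CD11b-positive, a gate that also admits monocytes and other CD11b-positive leukocytes. The libraries fell into 6 groups, with 3 MyS7KO and 3 S7fl/fl libraries from hearts without coronary occlusion (baseline), 5 MyS7KO and 5 S7fl/fl libraries from hearts 3 days after permanent ligation of the left anterior descending coronary artery, and 4 MyS7KO and 3 S7fl/fl libraries from hearts 7 days after it. Whether every library came from its own heart is not stated, and the p-values then reflect only how much the samples of a group differed, which may be technical.

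Complement is a cascade of plasma and locally made proteins that tags microbes, dying cells and debris for uptake. C1q, a hexamer built from A, B and C chains, recognises antibody complexes and apoptotic cells and starts the classical pathway. Its attached proteases cleave C4 and C2, and the resulting convertase cleaves C3. Factor B and properdin form and stabilise the convertase of the alternative pathway. The released peptides C3a and C5a act on G protein-coupled receptors of myeloid cells. Most complement proteins of plasma come from the liver, whereas C1q is made largely by macrophages and dendritic cells, and properdin by leukocytes.

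C1qa (chr4:136895917-136898803), C1qc (chr4:136889804-136893065) and C1qb (chr4:136880129-136886187) lie side by side on the minus strand of chromosome 4, within 18.7 kb of GRCm38. C3 (chr17:57203970-57228136), C4b (chr17:34728380-34743882) and Cfb (chr17:34856374-34862518) lie on chromosome 17, Cfp on the X chromosome (chrX:20925454-20931555), C3ar1 on chromosome 6 (chr6:122847138-122856161) and C5ar1 on chromosome 7 (chr7:16246743-16259540), all on the minus strand. These coordinates, from the deposited table, are those of GENCODE M21 for all 9. RefSeq promoter windows of GRCm38.p6, which run from 250 bases before to 50 bases after the RefSeq start of the gene, were at hand for 6 of the 9 (C1qb, C1qc, C3, Cfp, C3ar1 and C5ar1). For C1qc and C5ar1 the RefSeq start lies well inside the gene span given above and not at its edge. Distances below are counted from the RefSeq start. The windows shown are those of a neighbouring C1q pair and of Cfp, because C1qc and Cfp moved in opposite directions with time. Capitals mark GAGGAA, the core of binding sites of the myeloid factor PU.1, or its opposite-strand form TTCCTC.

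C1qb, chr4:136886151-136886450, minus strand: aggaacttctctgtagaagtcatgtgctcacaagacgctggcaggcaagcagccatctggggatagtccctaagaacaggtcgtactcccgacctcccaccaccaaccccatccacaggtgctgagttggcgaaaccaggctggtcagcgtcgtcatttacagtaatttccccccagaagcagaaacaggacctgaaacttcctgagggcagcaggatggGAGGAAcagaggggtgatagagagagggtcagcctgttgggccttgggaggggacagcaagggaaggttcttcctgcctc

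C1qc, chr4:136892865-136893164, minus strand: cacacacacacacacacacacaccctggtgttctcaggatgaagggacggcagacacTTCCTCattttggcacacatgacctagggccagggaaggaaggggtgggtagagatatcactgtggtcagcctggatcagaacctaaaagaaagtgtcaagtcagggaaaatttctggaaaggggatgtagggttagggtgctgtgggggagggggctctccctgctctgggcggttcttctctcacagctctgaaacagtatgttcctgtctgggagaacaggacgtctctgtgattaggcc

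Cfp, chrX:20931506-20931805, minus strand: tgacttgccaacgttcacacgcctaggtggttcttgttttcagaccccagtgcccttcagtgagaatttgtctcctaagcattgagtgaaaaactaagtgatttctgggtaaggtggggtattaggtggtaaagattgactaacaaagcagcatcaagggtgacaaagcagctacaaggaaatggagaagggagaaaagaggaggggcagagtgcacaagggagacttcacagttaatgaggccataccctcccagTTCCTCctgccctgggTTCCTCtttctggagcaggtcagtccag

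GAGGAA begins 30 bases before the RefSeq start of C1qb. Its opposite-strand form lies 193 bases before the RefSeq start of C1qc, and 6 and 22 bases after that of Cfp. For C1qc that start is inside the annotated gene span, whereas the hexamer lies outside it, upstream of its edge. Of 32851 RefSeq promoter windows of this length 28.3% hold this hexamer on either strand, and 3 of the 6 members with a window do. TGANTCA, an AP-1 site, was found in the window of C3ar1 (7.81% of all windows), TATAAA in those of C3 and C3ar1 (13.6%), and TGCTGAC, bound by Maf factors, in none of the 6 (4.67%). Motifs were searched on both strands, and a match is a string of letters and not a site known to be bound.

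Libraries held 15.5 to 23.9 M counts on genes. The summed level of 7 macrophage markers was 3794 to 5053 CPM at baseline, 5393 to 6317 at day 3 and 5300.2 to 7025 at day 7, and that of 9 neutrophil markers was 97.3 to 156, 70.4 to 124 and 133 to 192 CPM at these times. The neutrophil sum did not follow most of its genes. Of 8 tested at day 7 against baseline, 1 was higher and 4 lower in MyS7KO (edgeR adjusted p under 0.05, median log2 -1.72). In S7fl/fl 2 were higher and 4 lower (median -1.71). Ly6g, the neutrophil marker used in the sort, read 0 to 0.128 CPM. CPM are counts scaled to a common library size by TMM. Smad7 averaged 38 ± 15.9 CPM in MyS7KO and 56.4 ± 4.25 in S7fl/fl at baseline, 14.6 ± 3.98 in MyS7KO and 34.7 ± 4.42 in S7fl/fl at day 3, and 23.4 ± 7.66 in MyS7KO and 62.5 ± 6.76 in S7fl/fl at day 7. The lower Smad7 means of MyS7KO did not pass at any time (edgeR adjusted p = 0.999, 0.11 and 0.0702 in order of time), and the labels do not say which exons are removed. Lyz2, whose locus carries Cre, was lower in MyS7KO at each time (log2 -0.90, -0.92 and -0.97). Reads of Xist or of Y-linked genes gave 1 female-type library in MyS7KO and 2 in S7fl/fl at baseline, 3 in MyS7KO and 2 in S7fl/fl at day 3, and 4 in MyS7KO and 0 in S7fl/fl at day 7, so that at day 7 genotype and sex cannot be told apart. At day 3, 2 MyS7KO libraries (replicates 2 and 3) and 1 S7fl/fl library (replicate 4) carried over 2% of the other sex's signal.

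Per base of transcript, the C1q chains were by far the most abundant members. C1qa ranged from 1131 to 3068 FPKM (fragments per kilobase of gene, scaled to library size) over the 23 libraries, C1qb from 1384 to 3101 and C1qc from 482 to 1246, and the 3 together took 0.334 to 0.877% of all counts. C5ar1 followed by median over the libraries, at 133 to 249 FPKM (median 218), then Cfp, which encodes properdin, at 81.3 to 355 (median 187) and C3ar1 at 73.3 to 181 (median 111). C4b ranged from 13.5 to 138 FPKM. C3, the central component, ranged from 18.1 to 56.9 FPKM. Cfb, which encodes factor B, had the lowest values, 0.275 to 1.81 FPKM, or 15 to 82 counts a library. It overlaps another annotated gene, so these values may understate it.

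**Figure D1:**
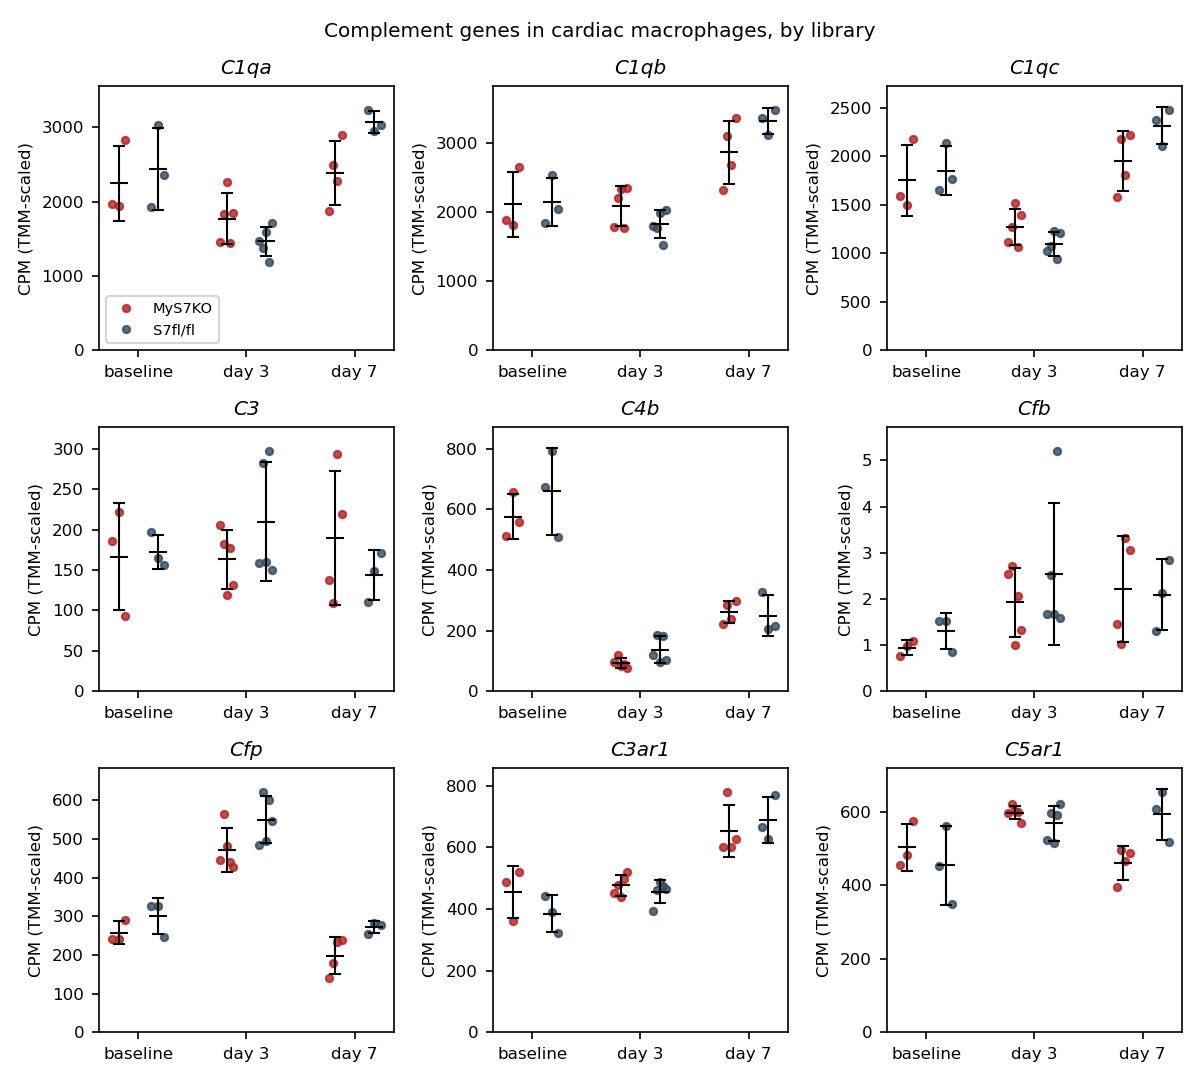
Each panel plots 1 complement gene in CPM (TMM-scaled, linear axis from 0) against time, with 1 point per library, MyS7KO to the left of S7fl/fl, and bars for the group mean and SD (n = 3, 3, 5, 5, 4 and 3). C4b is highest at baseline (509 to 793 CPM over both genotypes) and lowest at day 3 (75.6 to 188), Cfp is highest at day 3 (428 to 622), and the means of the C1q chains and C3ar1 are highest at day 7.

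The members were compared between times within each genotype. Against baseline, at day 3 edgeR called 3 of the 9 in MyS7KO, where it called 65.9% of all genes tested, and 5 in S7fl/fl, where it called 64%. Of these 1 was higher and 2 lower in MyS7KO (30.7 and 35.2% of all genes), and 2 higher and 3 lower in S7fl/fl (29.9 and 34.1%). At day 7 against baseline it called 5 members in MyS7KO (44% of all genes) and 4 in S7fl/fl (50.2%). These were 3 higher and 2 lower in MyS7KO (22.2 and 21.8% of all genes), and 3 higher and 1 lower in S7fl/fl (24.8 and 25.4%). Between day 3 and day 7 it called 7 in MyS7KO (39.6% of all genes) and 6 in S7fl/fl (21.7%). Here 5 were higher and 2 lower in MyS7KO (20.5 and 19.1% of all genes), and 5 higher and 1 lower in S7fl/fl (11.5 and 10.1%). A gene was called at a Benjamini-Hochberg adjusted p under 0.05 over all genes tested, and adjusted p without another name is that of edgeR. The median log2 change of the 9 from day 3 to day 7 was 0.43 in MyS7KO and 0.59 in S7fl/fl, against 0.08 in MyS7KO and 0.01 in S7fl/fl over all genes. The median of day 3 against baseline was -0.02 in MyS7KO and 0.24 in S7fl/fl, against -0.10 in MyS7KO and -0.06 in S7fl/fl over all genes. The time comparisons of a genotype share libraries, so their changes are not independent of each other.

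**Figure D2:**
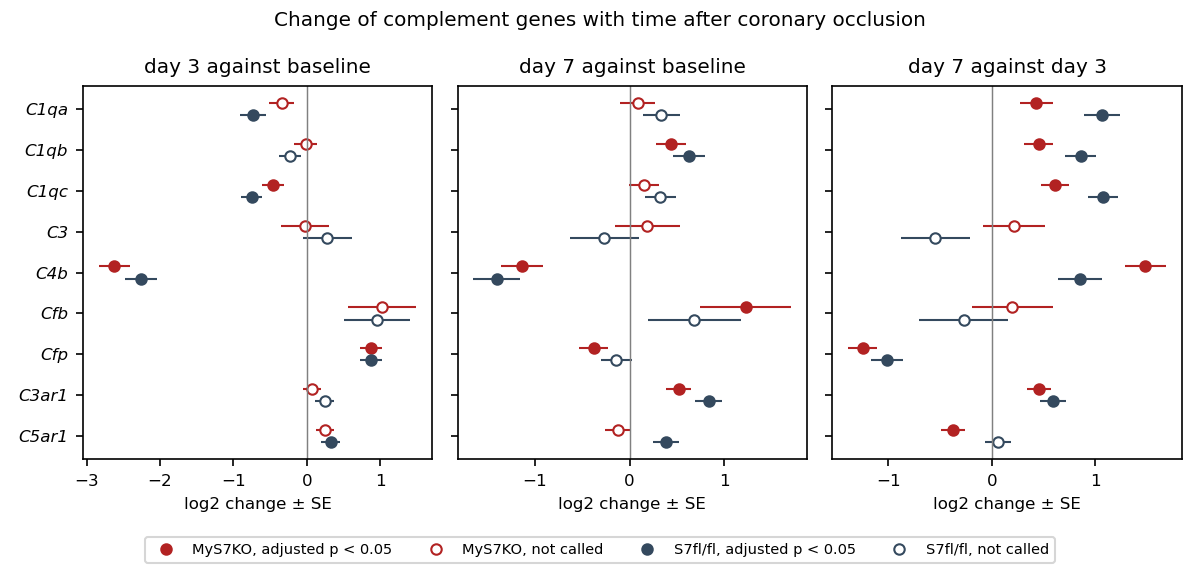
Log2 change (edgeR, ± SE) of each complement gene for day 3 against baseline, day 7 against baseline and day 7 against day 3, with MyS7KO above S7fl/fl and filled points for an adjusted p under 0.05. C4b stands far to the left of zero at day 3 (-2.62 in MyS7KO, -2.26 in S7fl/fl), and Cfp lies at 0.87 in both genotypes at day 3 against baseline, and at -1.25 in MyS7KO and -1.01 in S7fl/fl for day 7 against day 3.

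All 3 chains had their lowest means at day 3 in both genotypes, although C1qb was not called there against baseline, and all 3 were higher at day 7 than at day 3. C1qa, the A chain, read 1969.7, 1939 and 2832 CPM in MyS7KO and 1930.1, 3029.6 and 2356 CPM in S7fl/fl libraries at baseline. At day 3 it read 1453, 1833, 2264, 1443 and 1853 CPM in MyS7KO and 1468, 1373, 1587, 1195 and 1707 CPM in S7fl/fl. At day 7 the values were 1867, 2493, 2276 and 2901 CPM in MyS7KO and 3231, 2952 and 3027 CPM in S7fl/fl. Every S7fl/fl library of day 3 lay below every S7fl/fl library of baseline and of day 7, whereas the MyS7KO groups overlapped between times. In S7fl/fl C1qa fell by day 3 (log2 -0.73 ± 0.17, adjusted p = 0.000734) and was higher at day 7 than at day 3 (log2 1.07 ± 0.17, adjusted p = 9.93e-05). In MyS7KO its day 3 mean, 1769.5 ± 340.0 CPM against 2247 ± 507 at baseline, did not pass, and C1qa rose between day 3 and day 7 (log2 0.43 ± 0.16, adjusted p = 0.0356). This last call ended with no low-count filter (0.0903), with limma on log2(FPKM + 1) without a filter (0.1), and without MyS7KO baseline replicate 1 (0.0525) or 2 (0.0515), replicate 1 (0.0886) or 4 (0.0932) of MyS7KO at day 3, replicate 3 of S7fl/fl at day 3 (0.0506), or replicate 3 (0.0676) or 5 (0.138) of MyS7KO at day 7.

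C1qc, the C chain, followed the A chain most closely. It read 1590.2, 1496 and 2172 CPM in MyS7KO and 1651, 2135 and 1766 CPM in S7fl/fl at baseline. At day 3 the values were 1117, 1269, 1513, 1069 and 1393 CPM in MyS7KO and 1026, 1074, 1232, 945 and 1211 CPM in S7fl/fl. At day 7 they were 1575, 2181, 1809 and 2218 CPM in MyS7KO and 2369.6, 2103 and 2475 CPM in S7fl/fl. In both genotypes every day 7 library lay above every day 3 library. C1qc fell by day 3 in MyS7KO (log2 -0.46 ± 0.15, adjusted p = 0.00815) and in S7fl/fl (log2 -0.75 ± 0.15, adjusted p = 0.000102). It rose between day 3 and day 7 in MyS7KO (log2 0.61 ± 0.14, adjusted p = 0.000931) and in S7fl/fl (log2 1.08 ± 0.15, adjusted p = 1.47e-05). The fall in MyS7KO rested on baseline replicate 3, the highest of its group at 2172 CPM, and without it the change was -0.28 (adjusted p = 0.123).

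C1qb, the B chain, was not called at day 3 and exceeded baseline at day 7. Means were 2113 ± 469 CPM in MyS7KO and 2140.4 ± 351 in S7fl/fl at baseline, and 2088 ± 289 CPM in MyS7KO and 1824 ± 200.1 in S7fl/fl at day 3. At day 7 it read 2317, 3093, 2673 and 3349 CPM in MyS7KO and 3359.9, 3105 and 3471 CPM in S7fl/fl, with the highest library of baseline and day 3 at 2653 CPM. The S7fl/fl libraries of day 7 all lay above that value, and 3 of the 4 MyS7KO libraries did. Day 7 exceeded baseline in MyS7KO (log2 0.44 ± 0.16, adjusted p = 0.0302) and in S7fl/fl (log2 0.63 ± 0.17, adjusted p = 0.00367), and exceeded day 3 in MyS7KO (log2 0.45 ± 0.14, adjusted p = 0.0115) and in S7fl/fl (log2 0.86 ± 0.15, adjusted p = 0.000211). The MyS7KO call against baseline ended with library totals as the only scaling (log2 0.28, adjusted p = 0.136), with only the groups compared in the fit (0.0972), with limma on log2(FPKM + 1) without a filter (0.0608), and without MyS7KO baseline replicate 1 (0.124) or 2 (0.149) or MyS7KO day 7 replicate 3 (0.0689) or 5 (0.0986). The MyS7KO call against day 3 ended without MyS7KO day 7 replicate 5 (0.0515). With library totals alone the S7fl/fl change against baseline was 0.38 (adjusted p = 0.0495).

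The chains are made as 1 complex, yet their transcripts did not keep a fixed ratio. Counts per base of C1qc over C1qb were 0.461 to 0.476 in MyS7KO and 0.476 to 0.504 in S7fl/fl at baseline. They were 0.326 to 0.365 in MyS7KO and 0.321 to 0.349 in S7fl/fl at day 3, and 0.373 to 0.397 in MyS7KO and 0.382 to 0.402 in S7fl/fl at day 7. Within each genotype the 3 times did not overlap in this ratio. For C1qa over C1qb the range was 1.09 to 1.12 in MyS7KO and 1.09 to 1.25 in S7fl/fl at baseline, 0.826 to 1.01 in MyS7KO and 0.81 to 0.881 in S7fl/fl at day 3, and 0.843 to 0.906 in MyS7KO and 0.912 to 1.01 in S7fl/fl at day 7. Here every baseline library lay above every later one, and at day 7 every MyS7KO library lay below every S7fl/fl library. These ratios were formed after the levels had been seen and are a description without a test.

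**Figure D3:**
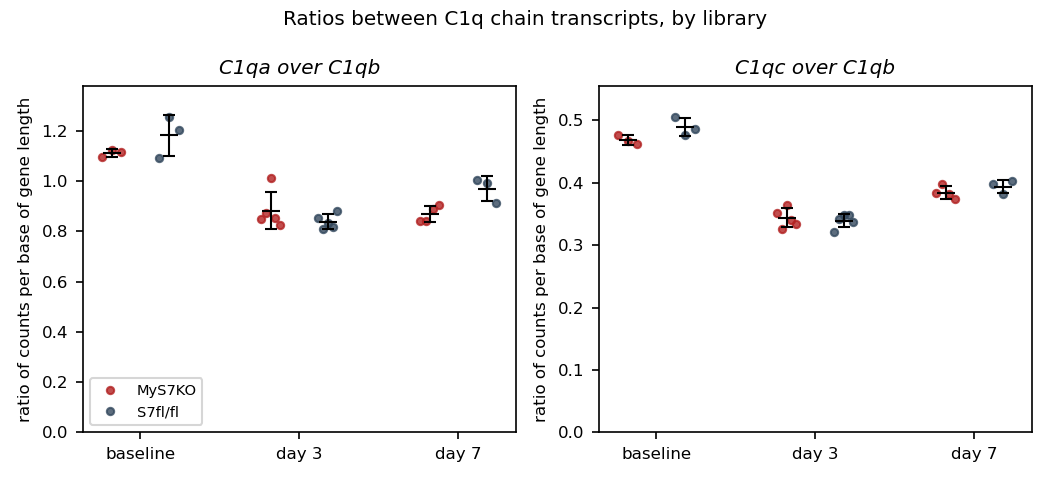
Ratios of counts per base between C1q chain transcripts by library and time (linear axes from 0), with MyS7KO to the left of S7fl/fl and bars for the mean and SD. C1qc over C1qb is 0.461 to 0.504 at baseline, 0.321 to 0.365 at day 3 and 0.373 to 0.402 at day 7 over both genotypes, with no overlap between times.

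C4b, the component that C1-bound protease cleaves after C1q binds its target, changed more than any other member. It read 512, 657 and 558 CPM in MyS7KO and 676, 793 and 509 CPM in S7fl/fl at baseline. At day 3 it read 96.9, 119, 85.2, 89.8 and 75.6 CPM in MyS7KO and 120.1, 188, 95.5, 183 and 104 CPM in S7fl/fl. The day 7 libraries held 223, 284, 240.4 and 299 CPM in MyS7KO, and 327, 205 and 216 CPM in S7fl/fl. The 3 times did not overlap in either genotype, with day 7 between day 3 and baseline. By day 3 C4b fell 6.16-fold in MyS7KO (log2 -2.62 ± 0.21, adjusted p = 1.4e-09) and 4.78-fold in S7fl/fl (log2 -2.26 ± 0.21, adjusted p = 1.19e-08). At day 7 it was still below baseline in MyS7KO (log2 -1.14 ± 0.22, adjusted p = 0.000358) and in S7fl/fl (log2 -1.40 ± 0.25, adjusted p = 8.39e-05), and above day 3 in MyS7KO (log2 1.49 ± 0.20, adjusted p = 6.4e-06) and in S7fl/fl (log2 0.86 ± 0.21, adjusted p = 0.00594). The last of these calls ended without S7fl/fl day 7 replicate 2, the highest of its group at 327 CPM (log2 0.61, adjusted p = 0.0793). C4b has a near-identical neighbour, C4a, which read 0.466 to 2.72 CPM, and how reads shared by the pair were counted is not stated.

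Marker sets of resident macrophages and of other cells were followed over the same times as C4b, and not all of them took its course. The summed level of 7 resident macrophage markers (Lyve1, Timd4, Folr2, Cx3cr1, Mrc1, Cd163 and Vsig4) was 3893 to 4998 CPM in MyS7KO and 3135 to 4345 CPM in S7fl/fl at baseline. It was 906 to 1284 CPM in MyS7KO and 1032 to 1608 CPM in S7fl/fl at day 3, and 909 to 1442 CPM in MyS7KO and 1237 to 1458 CPM in S7fl/fl at day 7. Of the 7 markers 6 fell by day 3 in each genotype. The sum of 5 endothelial markers was 764 to 1796 CPM in MyS7KO and 1313 to 1719 CPM in S7fl/fl at baseline, 346 to 591 CPM in MyS7KO and 245 to 562 CPM in S7fl/fl at day 3, and 147 to 911 CPM in MyS7KO and 177 to 349 CPM in S7fl/fl at day 7. All 5 fell by day 3 in each genotype. All 4 mural markers fell by day 3 as well, with sums of 633 to 949 CPM in MyS7KO and 717 to 1066 CPM in S7fl/fl at baseline, 111 to 187 CPM in MyS7KO and 97.8 to 166 CPM in S7fl/fl at day 3, and 59 to 411 CPM in MyS7KO and 71.7 to 199 CPM in S7fl/fl at day 7. The 7 fibroblast markers, whose cells also make C3 and C4b, summed to 499.8 to 1041 CPM in MyS7KO and 703 to 1053 CPM in S7fl/fl at baseline, 546 to 1219 CPM in MyS7KO and 247 to 1089 CPM in S7fl/fl at day 3, and 1771 to 5080.5 CPM in MyS7KO and 1285 to 3397 CPM in S7fl/fl at day 7. Of the 7 fibroblast markers 2 were called higher and 3 lower by day 3 in MyS7KO, and 0 higher and 3 lower in S7fl/fl. No marker of these 4 lists was at 0 in all libraries of a group. Their part in the C4b changes was not tested, and in bulk RNA fewer cells of a type and less RNA per cell cannot be told apart.

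C3, from which every pathway makes its main effector, showed no called change. It read 185, 221 and 93.3 CPM in MyS7KO and 197, 165 and 156 CPM in S7fl/fl at baseline. At day 3 it read 205, 183, 119.6, 178 and 131 CPM in MyS7KO and 158, 282, 159, 297 and 150.3 CPM in S7fl/fl, and at day 7 138, 109.5, 293 and 219 CPM in MyS7KO and 110.1, 149 and 171 CPM in S7fl/fl. All 6 groups overlapped, and the spread within groups was wide (SD of 39.6, 22.3 and 43.6% of the mean in MyS7KO in order of time, and 12.4, 35 and 21.5% in S7fl/fl). The S7fl/fl day 3 libraries with the highest C3, replicates 2 and 4, also had the highest sums of 5 monocyte markers, 1121 and 1558 CPM against 565 to 762 CPM in the other 3. Replicate 4, but not replicate 2, had the lowest fibroblast sum (247 CPM) and endothelial sum (245 CPM) of that group. The MyS7KO day 7 library with the highest C3, replicate 4, had the highest endothelial sum (911 CPM) and mural sum (411 CPM) of its group but the lowest monocyte sum (229 CPM). In the same group the library with the lowest C3, replicate 3 at 109.5 CPM, had the lowest fibroblast sum (1771 CPM), whereas replicate 1, with the highest (5080.5 CPM), had a C3 of 138 CPM. The part of these in the C3 levels was not tested.

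Cfb, the protease subunit of the alternative convertase, had counts near the limit of detection. Its CPM averaged 0.948 ± 0.161 in MyS7KO and 1.3 ± 0.388 in S7fl/fl at baseline, 1.93 ± 0.741 in MyS7KO and 2.54 ± 1.54 in S7fl/fl at day 3, and 2.22 ± 1.15 in MyS7KO and 2.09 ± 0.769 in S7fl/fl at day 7. Within each genotype the times overlapped, except for day 3 and baseline in S7fl/fl. Day 7 exceeded baseline in MyS7KO with a wide error (log2 1.23 ± 0.48, adjusted p = 0.0422), while day 3 against baseline did not pass in MyS7KO (log2 1.03 ± 0.46, adjusted p = 0.0558) or S7fl/fl (log2 0.96 ± 0.45, adjusted p = 0.064). The call at day 7 ended under 12 of 35 alternatives, among them the sex signal as a covariate (log2 0.93, adjusted p = 0.17), only the groups compared (0.0586), and limma on log2(FPKM + 1), where the change was 0.39 (0.103). It also ended without MyS7KO baseline replicate 1 (0.118), 2 (0.0869) or 3 (0.0653) or MyS7KO day 7 replicate 4 (0.121) or 5 (0.116). The day 3 changes passed under 9 alternatives in MyS7KO, DESeq2 among them (0.0402), and under 6 in S7fl/fl, DESeq2 among them (0.0493), and the S7fl/fl change was 0.52 without S7fl/fl day 3 replicate 4. MyS7KO passed without S7fl/fl baseline replicate 1 (0.0495), replicate 3 (0.0308) or 5 (0.0447) of MyS7KO at day 3, replicate 4 of S7fl/fl at day 3 (0.0307) or replicate 3 of MyS7KO at day 7 (0.0432). S7fl/fl passed without S7fl/fl day 3 replicate 1 (0.0461), 3 (0.0442) or 5 (0.0438) or MyS7KO day 7 replicate 3 (0.0495). The annotated gene overlaps Gm20547 on the same strand, and how reads shared by the pair were counted is not stated. Such reads may be missing from the Cfb counts, so low counts need not mean low expression.

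Cfp, which encodes properdin, the stabiliser of the alternative convertase, moved in the directions opposite to those of C1qc. It read 242, 241 and 291 CPM in MyS7KO and 328, 327 and 247 CPM in S7fl/fl at baseline. At day 3 it read 445, 565, 483, 440.4 and 428 CPM in MyS7KO and 486, 622, 494, 602 and 548 CPM in S7fl/fl. Day 7 libraries gave 140.0, 181, 234 and 239 CPM in MyS7KO, and 256, 283 and 279 CPM in S7fl/fl. In both genotypes every day 3 library lay above every library of the other times. Cfp rose 1.83-fold by day 3 in MyS7KO (log2 0.87 ± 0.15, adjusted p = 2.95e-05) and in S7fl/fl (log2 0.87 ± 0.15, adjusted p = 2.95e-05). Between day 3 and day 7 it fell in MyS7KO (log2 -1.25 ± 0.14, adjusted p = 4.58e-07) and in S7fl/fl (log2 -1.01 ± 0.15, adjusted p = 4.76e-05). At day 7 it was below baseline in MyS7KO, just past the threshold (log2 -0.38 ± 0.15, adjusted p = 0.049), and this call ended under 23 of 35 alternatives.

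The Cfp call against baseline ended with no low-count filter (adjusted p = 0.0922), with limma-voom with quality weights (log2 -0.23, adjusted p = 0.169), with only the groups compared (0.123) and with limma on log2(FPKM + 1) without a filter (0.0734). Of the 23 fits that each left out 1 library it was kept without S7fl/fl baseline replicate 3, MyS7KO day 3 replicate 2, or MyS7KO day 7 replicate 4 or 5, and ended without any of the other 19 (adjusted p = 0.0503 to 0.198, with a log2 change of -0.24 without MyS7KO day 7 replicate 1). The sum of 5 monocyte markers, cells that also express properdin, was 132 to 154 CPM in MyS7KO and 167 to 206 CPM in S7fl/fl at baseline. It was 589 to 802 CPM in MyS7KO and 565 to 1558 CPM in S7fl/fl at day 3, and 229 to 566 CPM in MyS7KO and 455 to 674 CPM in S7fl/fl at day 7. Of the 5 markers, 4 rose by day 3 in MyS7KO and 5 in S7fl/fl, and 4 fell between day 3 and day 7 in MyS7KO and 3 in S7fl/fl. Their part in the Cfp changes was not tested.

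The peptide receptors followed different courses. C3ar1, the receptor of C3a, read 486, 361 and 519 CPM in MyS7KO and 442, 392 and 323 CPM in S7fl/fl at baseline. At day 3 it read 451, 479, 438, 498 and 519 CPM in MyS7KO and 394, 461, 489, 473 and 464 CPM in S7fl/fl. By day 7 the values were 602, 779, 602 and 628 CPM in MyS7KO, and 667, 626 and 771 CPM in S7fl/fl. Every day 7 library lay above every earlier library of both genotypes, while baseline and day 3 overlapped. C3ar1 at day 7 exceeded baseline in MyS7KO (log2 0.52 ± 0.13, adjusted p = 0.00297) and in S7fl/fl (log2 0.84 ± 0.14, adjusted p = 4.36e-05), and exceeded day 3 in MyS7KO (log2 0.45 ± 0.11, adjusted p = 0.00307) and in S7fl/fl (log2 0.59 ± 0.12, adjusted p = 0.00129). All 4 calls held under each of the 35 alternatives.

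C5ar1, the receptor of C5a and a chemotactic receptor of myeloid cells, varied least among the members, with a ratio of 1.31 between its highest and lowest group means. It read 455, 481 and 576 CPM in MyS7KO and 454, 563 and 349 CPM in S7fl/fl at baseline. At day 3 it read 597, 621, 603, 599 and 571 CPM in MyS7KO and 523, 596, 514, 591 and 622 CPM in S7fl/fl. Values at day 7 were 395, 496, 467 and 489 CPM in MyS7KO, and 608, 654 and 517 CPM in S7fl/fl. In MyS7KO every day 7 library lay below every day 3 library, and C5ar1 fell between these times (log2 -0.37 ± 0.12, adjusted p = 0.0126), a call that ended without MyS7KO day 7 replicate 1 (log2 -0.31, adjusted p = 0.0589). In S7fl/fl it exceeded baseline at day 3 (log2 0.32 ± 0.13, adjusted p = 0.0294) and at day 7 (log2 0.38 ± 0.14, adjusted p = 0.0267), with overlapping groups. Both S7fl/fl calls rested on the low baseline replicate 3 (349 CPM), without which the changes were 0.17 (adjusted p = 0.262) and 0.23 (0.187). The day 3 call also ended with library totals alone (log2 0.09, adjusted p = 0.478), with only the groups compared (0.0801), and without S7fl/fl day 3 replicate 2 (0.052) or 5 (0.0612). It was 0.51 without S7fl/fl baseline replicate 2. The day 7 call ended with library totals alone (log2 0.13, adjusted p = 0.392), with only the groups compared (0.159), with limma on log2(FPKM + 1) without a filter (0.0539), and without S7fl/fl day 7 replicate 2 (0.0592) or 3 (0.112).

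Ranked over the 6 groups, few neighbouring levels were separated. The ratio of the highest to the lowest group mean was 7.06 for C4b, 2.77 for Cfp, 2.68 for Cfb, 1.82 to 2.11 for the C1q chains, 1.78 for C3ar1, 1.46 for C3 and 1.31 for C5ar1. For C4b MyS7KO baseline lay above MyS7KO day 7 without overlap, as S7fl/fl day 7 did above S7fl/fl day 3. For Cfp MyS7KO day 3 lay above S7fl/fl baseline, and MyS7KO baseline above MyS7KO day 7. For C3ar1 MyS7KO day 7 lay above MyS7KO day 3. All other neighbours in the order of means overlapped.

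No member was called between the genotypes at any time. MyS7KO against S7fl/fl gave 0 of 9 called at baseline and at day 3, where edgeR called 0.0121% of all genes, and 0 of 9 at day 7, where it called 0.0181%. At an unadjusted p under 0.05 the members numbered 0 at baseline, 1 at day 3 and 2 at day 7, against 2.27, 3.59 and 13.1% of all genes, and DESeq2 and limma-voom with quality weights called none of them either. The median log2 change of the members was -0.08, 0.06 and -0.21 in order of time, against -0.03, -0.00 and -0.01 over all genes. The member with the lowest p at day 3 was C4b, which averaged 93.4 ± 16.5 CPM in MyS7KO, against 138 ± 44 CPM in S7fl/fl (log2 -0.56 ± 0.19, adjusted p = 0.982, or 0.435 to 1 over the alternatives). Its 2 highest S7fl/fl libraries of day 3, replicates 2 and 4 at 188 and 183 CPM, were the 2 with the highest monocyte sums, and the groups overlapped. Replicate 4, but not replicate 2, also had the lowest fibroblast sum (247 CPM) and endothelial sum (245 CPM) of its group. From baseline to day 3 the monocyte sums rose while C4b fell. The part of these in the C4b levels was not tested.

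At day 7 the genotypes did not overlap for 3 of the 9 members, and for 8.9% of all genes, counted in either direction. All 3 members had lower values in MyS7KO. C1qa was 1867 to 2901 CPM in MyS7KO and 2952 to 3231 CPM in S7fl/fl (log2 -0.36 ± 0.18, adjusted p = 0.39, 95% interval of the log2 change -0.72 to -0.01). Cfp was 139.99 to 239 CPM in MyS7KO and 256 to 283 CPM in S7fl/fl (log2 -0.46 ± 0.15, adjusted p = 0.286, interval -0.76 to -0.16). C5ar1 was 395 to 496 CPM in MyS7KO and 517 to 654 CPM in S7fl/fl (log2 -0.36 ± 0.13, adjusted p = 0.316, interval -0.62 to -0.11). None passed, with adjusted p = 0.261 to 0.805, 0.166 to 0.805 and 0.14 to 0.805 over the alternatives in that order. Xist marked each of the 4 MyS7KO libraries of day 7 and Y-linked reads each of the 3 from S7fl/fl, and Cfp lies on the X chromosome. Both sexes were read in both genotypes at baseline and at day 3. In MyS7KO at baseline Cfp was 242 CPM in the 1 Xist library and 241 to 291 CPM in the 2 Y libraries. In S7fl/fl at baseline it was 327 to 328 CPM in the 2 Xist libraries and 247 CPM in the 1 Y library. At day 3, with libraries of mixed sex signal included, Cfp was 428 to 565 CPM in the Xist libraries and 445 to 483 CPM in the Y libraries of MyS7KO. In S7fl/fl at day 3 it was 548 to 602 CPM in the Xist libraries and 486 to 622 CPM in the Y libraries. The part of sex in the day 7 values of Cfp was not tested. With the sex signal as a covariate the day 7 change of Cfp was -0.55 (adjusted p = 0.268), that of C5ar1 -0.47 (0.267) and that of C1qa -0.28 (0.577). The covariate takes its value from baseline and day 3 libraries, so this fit cannot separate sex from genotype at day 7.

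Whether the genotypes differed in their change over time was tested by the difference itself, and no member and no other gene was called (0% of all genes tested for each of the 3 pairs of times). Unadjusted p-values under 0.05 were found for 0 of the 9 members from baseline to day 3, for 1 from baseline to day 7 and for 4 from day 3 to day 7, against 4.48, 5.21 and 10.4% of all genes, and over the alternatives 0 to 15, 0 to 14 and 0 to 6 genes were called, none of them a member. From day 3 to day 7 the change in MyS7KO minus that in S7fl/fl was -0.64 ± 0.24 for C1qa, -0.46 ± 0.20 for C1qc, 0.63 ± 0.30 for C4b and -0.43 ± 0.17 for C5ar1 (edgeR adjusted p = 0.442, 0.457, 0.466 and 0.447). From baseline to day 7 it was -0.51 ± 0.19 for C5ar1 (adjusted p = 0.877). Calls of C1qa and C5ar1 that were made in 1 genotype and not in the other are therefore not shown to differ between genotypes. Without the libraries of mixed sex signal the C1qa difference from day 3 to day 7 was -0.41 (adjusted p = 0.74).

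Other genes of the pathway were followed as a list of 49, of which 29 had enough counts to be tested. By day 3, when edgeR called 30.7% of all genes higher and 35.2% lower in MyS7KO, and 29.9% higher and 34.1% lower in S7fl/fl, the counts by role were as follows, with no test between roles. Of the 6 initiators tested, which bind targets or activate C4, 5 were lower in MyS7KO and all 6 in S7fl/fl. Of 5 components 4 were lower in each genotype, and of 9 regulators 8 were lower in each. The 5 components were near the floor, with an average log2 CPM of -0.288 to 0.625, against 3.53 to 10.8 for the receptors. Of 9 receptors and binding partners 7 were higher and 2 lower in each genotype. In all, 7 were higher and 19 lower in MyS7KO, with a median log2 change of -1.57 against -0.10 over all genes. In S7fl/fl 7 were higher and 20 lower, with a median of -1.90 against -0.06. By genotype 0 of the 29 were called at any time, by edgeR, as with the members.

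Among initiators C1ra, a protease bound to C1q, averaged 7.76 ± 1.05 CPM in MyS7KO and 7.43 ± 0.909 in S7fl/fl at day 3, against 23 ± 2.22 in MyS7KO and 28.4 ± 2.35 in S7fl/fl at baseline (log2 -1.57 ± 0.15, adjusted p = 5.29e-09 in MyS7KO, log2 -1.93 ± 0.15, adjusted p = 2.46e-10 in S7fl/fl). Colec12, a collectin of cell surfaces, fell to 18.7 ± 4.61 CPM in MyS7KO and 18.4 ± 4.07 in S7fl/fl at day 3, against 109.8 ± 15.7 in MyS7KO and 99.6 ± 13.5 in S7fl/fl at baseline (log2 -2.55 ± 0.22, adjusted p = 4.22e-09 in MyS7KO, log2 -2.44 ± 0.22, adjusted p = 8.69e-09 in S7fl/fl). C1ra and Colec12 fell over the same times as the resident, endothelial and mural sums given above, whose part in these changes was not tested.

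Of the receptors 7 rose by day 3, among them Cd93, Itgax, Itgb2, C1qbp and Calr. Cd93, once described as a C1q receptor, rose to 804 ± 61.1 CPM in MyS7KO and 833 ± 33.8 in S7fl/fl, against 269.8 ± 50.1 in MyS7KO and 269 ± 12.4 in S7fl/fl at baseline (log2 1.58 ± 0.14, adjusted p = 1.44e-09 in MyS7KO, log2 1.63 ± 0.14, adjusted p = 1.03e-09 in S7fl/fl). Itgax and Itgb2 encode the subunits of complement receptor 4, which binds the C3 fragment iC3b. Itgax changed by 1.33 ± 0.13 in MyS7KO and 1.27 ± 0.13 in S7fl/fl (log2, adjusted p = 5.59e-09 and 1.11e-08), and Itgb2 by 1.27 ± 0.15 in MyS7KO and 1.62 ± 0.16 in S7fl/fl (adjusted p = 2.1e-07 and 8.41e-09). C1qbp, a mitochondrial protein that binds the globular heads of C1q, changed by 1.43 ± 0.12 in MyS7KO and 1.26 ± 0.12 in S7fl/fl (adjusted p = 1.3e-09 and 8.65e-09). Calr, the chaperone calreticulin, which serves as a surface receptor for C1q collagen tails, fell to 756 ± 68.1 CPM in MyS7KO and 981 ± 138 in S7fl/fl at day 7, against 1895 ± 149 in MyS7KO and 1796 ± 228 in S7fl/fl at day 3 (log2 -1.32 ± 0.11, adjusted p = 1.83e-08 in MyS7KO, log2 -0.87 ± 0.12, adjusted p = 2.46e-05 in S7fl/fl). All these changes kept their call under each of the 35 alternatives. At day 7 against baseline 7 of the 29 were higher and 14 lower in MyS7KO, where 22.2% of all genes were higher and 21.8% lower. In S7fl/fl 7 were higher and 17 lower, where 24.8% of all genes were higher and 25.4% lower.

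**Figure D4:**
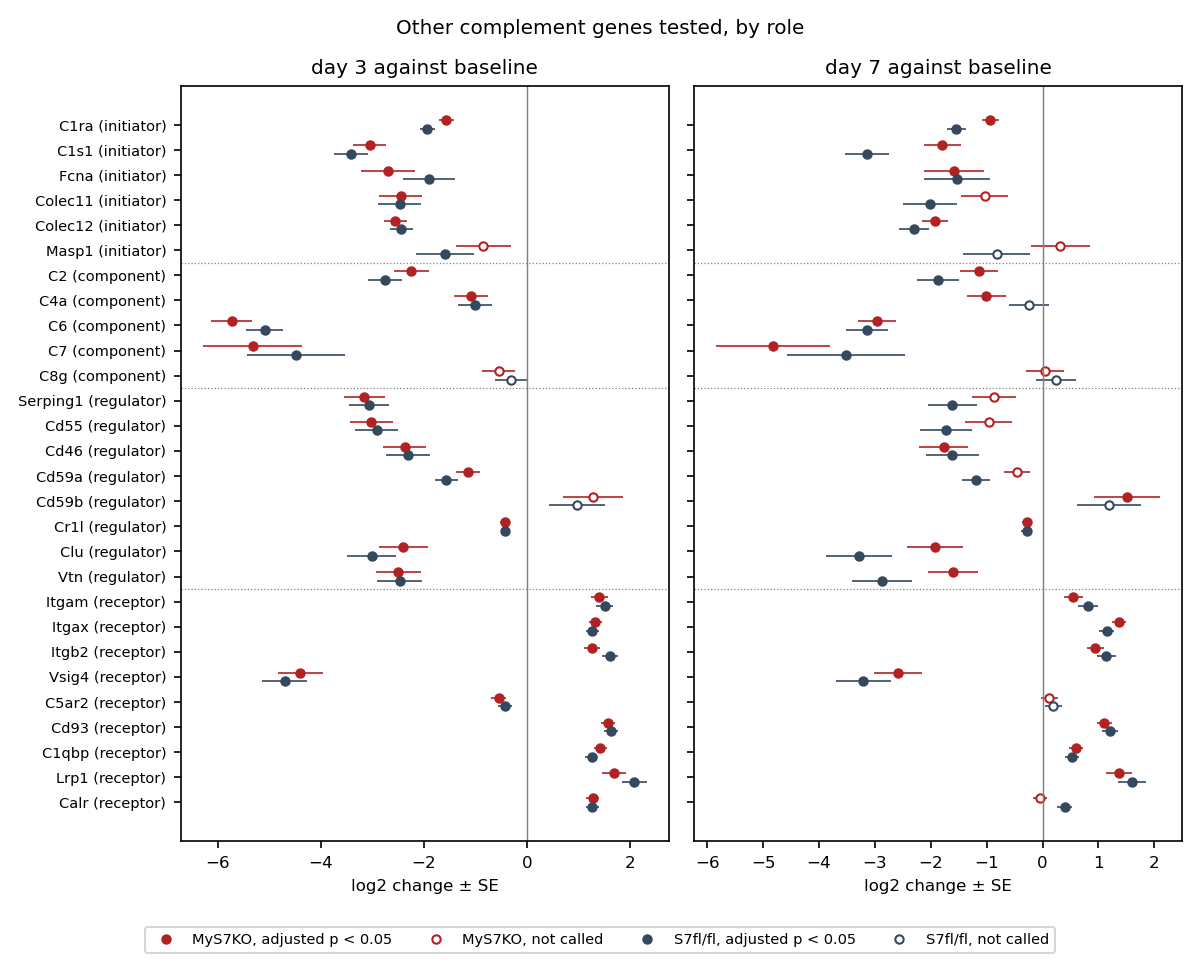
Log2 change (edgeR, ± SE) at day 3 and day 7 against baseline for other complement genes tested, grouped by role (1 regulator is not plotted), with MyS7KO above S7fl/fl and filled points for an adjusted p under 0.05. At day 3 no initiator, component or regulator was called higher, and 7 of 9 receptors were.

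Likeness of profiles was measured as the root mean square difference between the log2 group means over the 6 groups, each centred on its own mean, among 11174 genes. C1qa was nearest to C1qc (0.0552), then to Rogdi (0.0665) and Ccl3 (0.0806), and C1qc nearest to Rogdi (0.0466), C1qa and Ccl3 (0.0748). C1qb lay farther from its sister chains (0.186 from C1qa, 0.202 from C1qc) than from Fhl3 (0.0352), Irf8 (0.0583) and Gramd1a (0.0594). C3ar1 was nearest to Nfe2l2 (0.0522), Sowahc (0.0549) and Espl1 (0.0586), and C5ar1 to Gnptg (0.0415), Rbpj (0.0423) and Rab3il1 (0.0562). C4b and Cfp had less close neighbours, with Pde4c (0.137), Porcn (0.14) and H2-Q6 (0.167) for C4b, and Phf19 (0.147) and Tuba1b (0.149) among the nearest of Cfp. Those of C3 were Lpp (0.0726), Gcn1l1 (0.0763) and Rexo1 (0.0809), and those of Cfb March9 (0.0669), Sdc3 (0.101) and Nr4a2 (0.102). With 6 groups and profiles of small range, such distances are a description and no measure of shared control.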

How the data were processed

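The deposited table held read counts per gene and FPKM for 23 libraries. Alignment and counting were by the authors, with TopHat2 2.0.9, Cufflinks 2.1.1 and HTSeq 0.6.1 on mm10 or GRCm38.p6, per the submitters' processing notes, which do not give roles or order. The deposited counts are whole numbers and were not normalised. The authors' FPKM equalled count over gene length over a library constant, which was 0.925 to 1.16 times the column total. Strand handling is not given in the sources used here.

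Counts were tested with edgeR 4.0.16 (R 4.3.3): TMM scaling, filterByExpr on 6 groups, and a quasi-likelihood F test on all 23 libraries with 1 coefficient per group (17 residual degrees of freedom), with Benjamini-Hochberg adjustment over 16545 genes and a threshold of 0.05. The standard error is the log2 change over the square root of F. An approximate 95% interval is 1.96 standard errors to each side, which is narrower than the F test implies. The procedure was tested on simulated data. Alternatives used limma 3.58.1, DESeq2 1.42.0, other scalings and filters, a sex covariate, a replicate block and each library left out.

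Samples were grouped by their labels. Within groups, all 35 pairs of libraries differed by more than sampling noise. The members, marker lists and pathway list were chosen with earlier results of these data known. Other pathway genes are named where called with a mean log2 CPM of at least 1, lowest p first, at most 8 per kind of comparison. Likeness lists hold the 3 nearest genes. Results for 2 genes that these rules named are not reported here. Promoter windows are from RefSeq.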

Additional observations from a re-analysis of the deposited data

Results flagged for a closer look

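Of 33 groups of 4 or more samples, counted over the members and the C1q ratios, 3 held a sample far from the others, where chance gives about 1 in 20. Cfb in S7fl/fl day 3 replicate 4 read 5.2 CPM, against 1.6 to 2.53 CPM in the other 4 libraries of its group. That library also had the highest monocyte marker sum (1558 CPM) and a mixed sex signal (7.48% of the minor kind). C3ar1 in MyS7KO day 7 replicate 3 read 779 CPM, against 602 to 628 CPM in the other 3, with no change in any C3ar1 call when it was left out. The ratio of C1qa to C1qb per base in MyS7KO day 3 replicate 3 was 1.01, against 0.826 to 0.873 in the other 4, in a library with 3.95% of the minor sex signal. Whether mixing of samples took part in these values was not tested.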

How the results depend on the processing

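Of the 41 member changes followed, 30 were called, 20 of these kept their call under all 35 alternatives, and none reversed. The number of members called in MyS7KO at day 3 against baseline was 3, and became 5 with limma-voom with quality weights, 5 with only the groups compared and 5 without the libraries of mixed sex signal (3 to 5 when leaving out 1 library, with 5 without MyS7KO day 3 replicate 3). In MyS7KO at day 7 against baseline it was 5, and became 2 with only the groups compared and 2 with limma on log2(FPKM + 1) without a filter (2 to 5 when leaving out 1 library, with 2 without MyS7KO baseline replicate 1 or 2, and 3 without MyS7KO baseline replicate 3 or MyS7KO day 7 replicate 3 or 5). Leaving out 1 library gave 5 to 7 members in MyS7KO at day 7 against day 3 and 5 to 6 in S7fl/fl, and in S7fl/fl 4 to 6 at day 3 and 3 to 5 at day 7 against baseline, and 0 for each genotype comparison and each difference of changes. Over all genes the genotype comparisons called 0 to 39 at baseline, 1 to 5 at day 3 and 2 to 59 at day 7. Scaling by library totals alone moved the median of all genes by -0.259 to -0.155 (log2) in comparisons with baseline. It reversed none of the 41 member changes followed, and the smaller member changes were not followed. The labels do not say whether the same replicate numbers pair samples. Over 10 same-numbered pairs the correlation of deviations was -0.3 to 0.225, and 4 libraries matched their own number best. With so few pairs this cannot exclude pairing. With the replicate number as a block, Cfb at day 7 against baseline in MyS7KO was 0.95 (adjusted p = 0.101), and the number of members called was 4 against 3 without the block at day 3 against baseline in MyS7KO, 4 against 5 at day 7 against baseline in MyS7KO, and the same as without it in every other comparison. The other pathway genes were followed through the same alternatives after seeing the data. The count called was 26 to 27 in MyS7KO and 25 to 27 in S7fl/fl at day 3 against baseline, and 5 to 12 of a main 9 at day 7 against day 3 in S7fl/fl, with 5 without S7fl/fl day 7 replicate 2. Groups of 3 to 5 libraries, and 15 to 82 counts a library for Cfb, limit what could be detected.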
